A study of Homo sapiens with 12 samples.

Results

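PARP2, PARG, CHD1L and C4orf27 (now named HPF1) are genes of ADP-ribose signalling, and their knockdowns were followed in K562, a human chronic myelogenous leukemia cell line. They are 4 of the 543 genes targeted by CRISPR interference, in which sgRNAs guide a transcriptional repressor to gene starts, with 2 sgRNAs on each construct. All constructs carrying a sgRNA of 1 of these genes in either position were taken, 4560 for each gene and 18192 together out of 1301881. Each gene had 2 sgRNAs, and 220 constructs per gene paired them with a non-targeting sgRNA.

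All groups were puromycin-selected K562 CRISPRi cells carrying the same lentiviral library. Each of 2 screens, 2022 and 2023, held 3 groups of 2 libraries from 2 replicate cultures. The T0 groups were sampled 9 days after transduction. The reference groups received the vehicle DMSO and were collected on day 18 in 2022 and day 19 in 2023. The niraparib groups received 2 μM niraparib for 3 days in 2022, and 2 μM raised to 3 μM over 4 days in 2023, and were collected with the reference groups, in 2023 after further growth without drug. The cells came from 1 line, and no measurement of knockdown was used. The 12 libraries held 182552286 to 460723933 reads, with a median of 100 to 258 reads per construct and 0.106% to 0.664% of constructs without reads. PCR reads are not independent molecules, so these depths bear on counting error alone. P-values measure the spread between the replicate cultures of this 1 line.

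ADP-ribosylation is a protein mark laid down at DNA breaks. PARP1 and PARP2 are the enzymes that sense breaks, and C4orf27 (HPF1) joins their active site and directs the mark to serine. PARG takes poly(ADP-ribose) apart, and CHD1L (ALC1) is a nucleosome remodeler that poly(ADP-ribose) recruits and switches on. Niraparib blocks the catalytic site of PARP1 and PARP2 and holds the enzymes on DNA, and loss of PARP1 is known to make cells resistant to such drugs. RNase H2, which returns below, removes ribonucleotides from DNA.

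Repression by CRISPR interference acts at the gene start, so the start windows of 3 of the genes are shown, 5′ to 3′ on the strand of the gene. Each runs from 250 bases before to 30 bases after the start in RefSeq on GRCh38.p14. Capitals mark CCGGAA, the core of many ETS factor sites, searched on both strands with TTCCGG as its reverse complement, with no overlap with another motif.
PARP2, chr14:20343385-20343664, plus strand: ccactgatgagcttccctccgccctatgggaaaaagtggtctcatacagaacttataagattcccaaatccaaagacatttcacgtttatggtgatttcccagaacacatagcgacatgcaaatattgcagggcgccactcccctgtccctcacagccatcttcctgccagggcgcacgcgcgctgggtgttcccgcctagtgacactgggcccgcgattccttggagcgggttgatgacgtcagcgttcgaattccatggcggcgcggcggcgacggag
PARG, chr10:49941998-49942277, minus strand: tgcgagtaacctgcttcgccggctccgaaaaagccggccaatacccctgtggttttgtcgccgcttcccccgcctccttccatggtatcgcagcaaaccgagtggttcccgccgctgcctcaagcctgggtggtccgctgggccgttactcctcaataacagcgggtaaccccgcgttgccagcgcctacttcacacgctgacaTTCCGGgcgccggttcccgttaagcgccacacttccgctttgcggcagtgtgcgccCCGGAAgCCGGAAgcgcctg
C4orf27 (HPF1), chr4:169757915-169758194, minus strand: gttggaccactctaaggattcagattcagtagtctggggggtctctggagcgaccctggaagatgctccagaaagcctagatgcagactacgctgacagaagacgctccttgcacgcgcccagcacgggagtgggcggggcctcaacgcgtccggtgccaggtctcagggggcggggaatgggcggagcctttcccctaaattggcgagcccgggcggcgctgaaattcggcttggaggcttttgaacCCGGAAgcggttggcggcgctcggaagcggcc
The letters CCGGAA occurred 0 times in the PARP2 window, 3 times in the PARG window and 1 time in the C4orf27 window, and they were present in 16.6% of all 35116 windows. The PARG start lies 26 bases from that of TIMM23B, a mitochondrial import gene read from the opposite strand. The C4orf27 start lies 119 bases from that of the uncharacterised LOC107986240, also on the opposite strand. Neither neighbour was targeted in the library. Neighbours were searched only among the starts of these 35116 windows. A neighbour outside this set, at PARP2 or at the other genes, would be missed. RefSeq lists 3 starts for CHD1L, and its windows are not shown. Of these starts, 1 lies 277 bases from that of PRKAB2, which is on the opposite strand and was not targeted either. The window of this start begins at chr1:147172497, far from those of the other starts, at chr1:147242434 and chr1:147242890. Which start the CHD1L sgRNAs act at was not determined. By the positions in their names, the sgRNA pairs were 6 bases apart for PARP2, 28 for CHD1L, 110 for PARG and 465 for C4orf27.

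Growth without drug was read as the change from T0 to the reference endpoint, on a log2 scale where 0 is the level of constructs with 2 non-targeting sgRNAs. Of the 4 genes, 2 fell (edgeR), PARP2 and CHD1L, where 81% of all genes fell and 4.24% rose (259 and 250 genes under TMM scaling). CHD1L stood at -0.33 in 2022 replicate 1, -0.10 in 2022 replicate 2, -0.12 in 2023 replicate 1 and -0.14 in 2023 replicate 2, a mean change of -0.17 ± 0.10 (SD, n = 4; edgeR adjusted p = 0.0051). All 4 cultures lay below -0.064, the lowest change of 55 non-targeting sgRNAs, with 2022 replicate 1 apart from the other 3. Here and below, the range of these sgRNAs is that of their changes fitted over all cultures. Their range in single cultures is not given and may be wider. PARP2 changed by -0.028 ± 0.014 (SD, n = 4; edgeR adjusted p = 0.044), with values of -0.047, -0.021, -0.029 and -0.015 in the same order. These lay within the range of the non-targeting sgRNAs, from -0.064 to 0.077, and the call was lost with no replicate block (edgeR adjusted p = 0.060). In growth, 3 of the 55 non-targeting sgRNAs passed the same threshold. C4orf27 stood at -0.056 ± 0.073 (SD, n = 4; edgeR adjusted p = 0.10), with -0.16 in 2022 replicate 1 and -0.0018, -0.045 and -0.014 in the others. PARG stood at 0.0066 ± 0.0094 (SD, n = 4; edgeR adjusted p = 0.53) and lay within the range of the non-targeting sgRNAs in all 4 cultures. From lowest to highest the order was CHD1L, C4orf27, PARP2 and PARG. The values of C4orf27 overlapped those of CHD1L, PARP2 and PARG, and those of PARP2 and PARG did not overlap. For comparison, PARP1 knockdown fell to -0.75 (edgeR adjusted p = 0.0019).

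The reference library of 2022 replicate 1 stood apart. Its growth values deviated from the mean of the other 3 cultures with an SD over genes of 0.18, against 0.084 to 0.10 for the other cultures. PARP1 deviated by -0.78 there, the fourth lowest of 543 genes, CHD1L by -0.21 and C4orf27 by -0.14, whereas PARP2 deviated by -0.025. Without this culture CHD1L stood at -0.11 in growth and still passed, and C4orf27 at -0.016. Without 2023 replicate 1 or 2023 replicate 2, CHD1L (-0.17 in both cases) and PARP2 (-0.025 and -0.032) did not pass, and without 2022 replicate 2 C4orf27 passed at -0.096. The part of this library in the values was not tested. The directions in growth are relative to the non-targeting controls. TMM scaling, which moved the median of all genes by 0.45, placed PARP2 at 0.43, PARG at 0.46, CHD1L at 0.28 and C4orf27 at 0.40.

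Niraparib response, the change from the reference to the niraparib endpoint, asked how each knockdown altered the fate of cells in the drug. C4orf27 knockdown cells were strongly depleted, PARP2 and PARG knockdown cells were slightly enriched, and CHD1L knockdown cells were slightly depleted. So 2 of the 4 genes fell and 2 rose, where 35.7% of all genes fell and 44.2% rose. C4orf27 stood at -1.31 and -1.32 in 2022 and at -1.56 and -1.58 in 2023, a mean change of -1.44 ± 0.15 (SD, n = 4; edgeR adjusted p = 1.5e-07). It was the 11th lowest of 543 genes. The reads behind these values fell from 140111 to 41583 in 2022 replicate 1, while those of the non-targeting pairs went from 2265341 to 1662084.

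PARP2 rose by 0.12, 0.066, 0.088 and 0.064, a mean of 0.085 ± 0.028 (SD, n = 4; edgeR adjusted p = 0.00029). PARG rose by 0.062, 0.076, 0.078 and 0.077, a mean of 0.073 ± 0.0076 (SD, n = 4; edgeR adjusted p = 0.00028). All 8 of these single-culture values lay above the highest fitted change of a non-targeting sgRNA, 0.050, and the ranges of both genes overlapped. CHD1L was at 0.063 in 2022 replicate 1 and at -0.16, -0.17 and -0.15 in the other cultures, a mean of -0.10 ± 0.11 (SD, n = 4; edgeR adjusted p = 0.043). The 3 negative values lay below the lowest fitted change of a non-targeting sgRNA, -0.086, and the positive one above the highest. Without 2022 replicate 1 the CHD1L change was -0.16, and without 2022 replicate 2 it was -0.048, both past the threshold. It did not pass without 2023 replicate 1 (-0.10) or 2023 replicate 2 (-0.11). PARP1 knockdown, beside these, rose by 2.13 (edgeR adjusted p = 1.3e-05), the highest of all genes.

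The arms went through unequal numbers of doublings, so the response was also computed with both arms set to the same number. There PARP2 stood at 0.11, PARG at 0.11, CHD1L at -0.23 and C4orf27 at -2.15, and the median of all genes moved from 0.013 to -0.20.

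**Figure D1:**
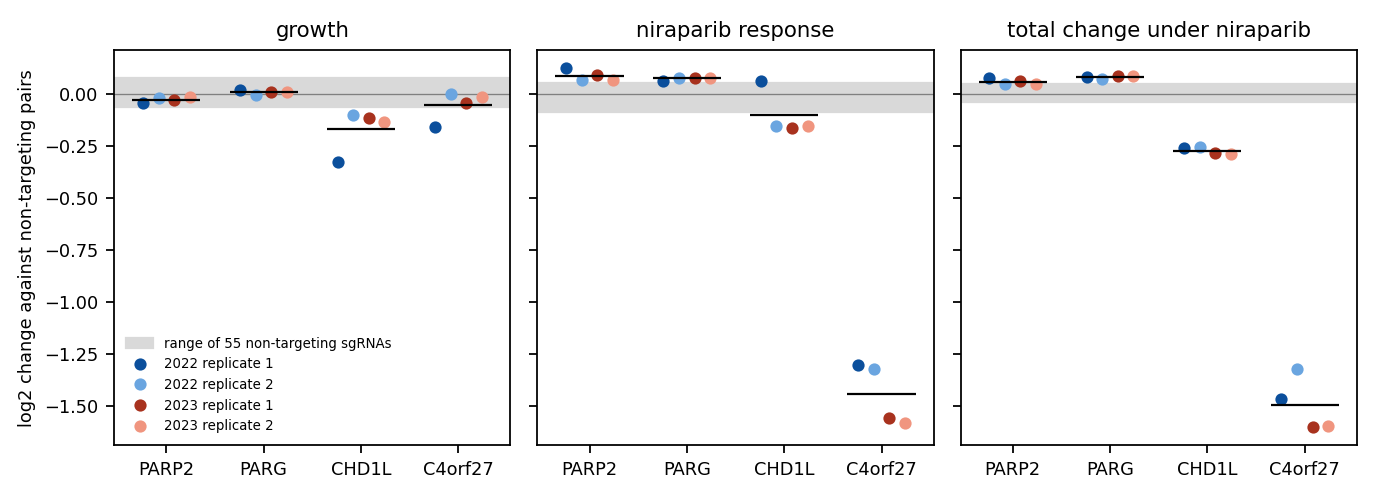
Single-gene changes of PARP2, PARG, CHD1L and C4orf27 in growth, niraparib response and total change, on the log2 scale relative to non-targeting pairs. Points are the 4 cultures and bars their means. The grey band is the range of 55 non-targeting sgRNAs in changes fitted over all cultures, not in single cultures. C4orf27 lies between -1.31 and -1.58 in response, and CHD1L of 2022 replicate 1 differs from its other 3 cultures in growth and response but not in total change.

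The total change from T0 to the niraparib endpoint does not use the reference libraries, but shares its own with growth and response. Here PARP2 and PARG rose and CHD1L and C4orf27 fell, where 82.1% of all genes fell and 5.52% rose (294 and 229 genes under TMM scaling). CHD1L stood at -0.26, -0.26, -0.28 and -0.29, a mean of -0.27 ± 0.016 (SD, n = 4; edgeR adjusted p = 0.00041), with 2022 replicate 1 no longer apart. C4orf27 stood at -1.47, -1.32, -1.60 and -1.60, a mean of -1.50 ± 0.13 (SD, n = 4; edgeR adjusted p = 8.4e-09). PARG rose by 0.080 ± 0.0065 (SD, n = 4; edgeR adjusted p = 0.00012) and PARP2 by 0.057 ± 0.014 (SD, n = 4; edgeR adjusted p = 0.0018). Counted from the lowest of 543 genes, PARG ranked 530 and PARP2 525. PARP2 was above the highest fitted change of a non-targeting sgRNA (0.049) in 2 of 4 cultures and PARG in 4 of 4. Under TMM scaling CHD1L was at 0.17.

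The 2023 screen used more drug for longer, and the difference in response between the screens was tested for each gene. In edgeR 0 of the 4 passed, where 0.368% of all genes did, and 1 of the 4, C4orf27, had an unadjusted p under 0.05 (edgeR adjusted p = 0.18). Its response was 0.26 lower in 2023, and both cultures of 2023 lay below both of 2022. DESeq2 called this difference with non-targeting size factors (-0.26) and with median-of-ratios size factors (-0.19). So did edgeR without 2022 replicate 1 (-0.25) or 2022 replicate 2 (-0.27), which leaves 1 culture of 2022 that is assumed to vary like the others. Without 2022 replicate 2 the difference also passed for CHD1L (-0.22) and PARP2 (-0.047). Dose, days in drug, collection day and cells per construct at transduction (350 in 2022, 400 in 2023) changed together. Read depth changed with them, with 460723933 and 441175842 reads in the reference libraries of 2022, and 200224028 and 187186889 in those of 2023. So these cannot be told apart.

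The sgRNAs of a gene were then taken one by one. In response, 3 of the 8 sgRNAs fell and 3 rose (edgeR), where 32.7% of all sgRNAs fell and 42.5% rose. The first C4orf27 sgRNA stood at -0.95 ± 0.11 and the second at -2.10 ± 0.18 (SD, n = 4), and their cultures did not overlap. The PARP2 sgRNAs stood at 0.077 and 0.092, and both rose. The second PARG sgRNA rose by 0.11 ± 0.0060 (SD, n = 4), while the first stood at 0.015 (edgeR adjusted p = 0.34). The first CHD1L sgRNA fell by 0.22 ± 0.18 (SD, n = 4), while the second stood at -0.047 (edgeR adjusted p = 0.16). In growth the CHD1L sgRNAs were close, at -0.18 and -0.17. The small PARP2 fall in growth belonged to its second sgRNA, at -0.050 (edgeR adjusted p = 0.0020), with the first at -0.00070 (edgeR adjusted p = 0.97). The difference between the sgRNAs of a gene was not tested. The 2 constructs that carried both C4orf27 sgRNAs had a response of -2.27 ± 0.15 (SD, n = 4), and the 2 that carried 1 of them in both positions had -1.73 ± 0.49 (SD, n = 4).

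**Figure D2:**
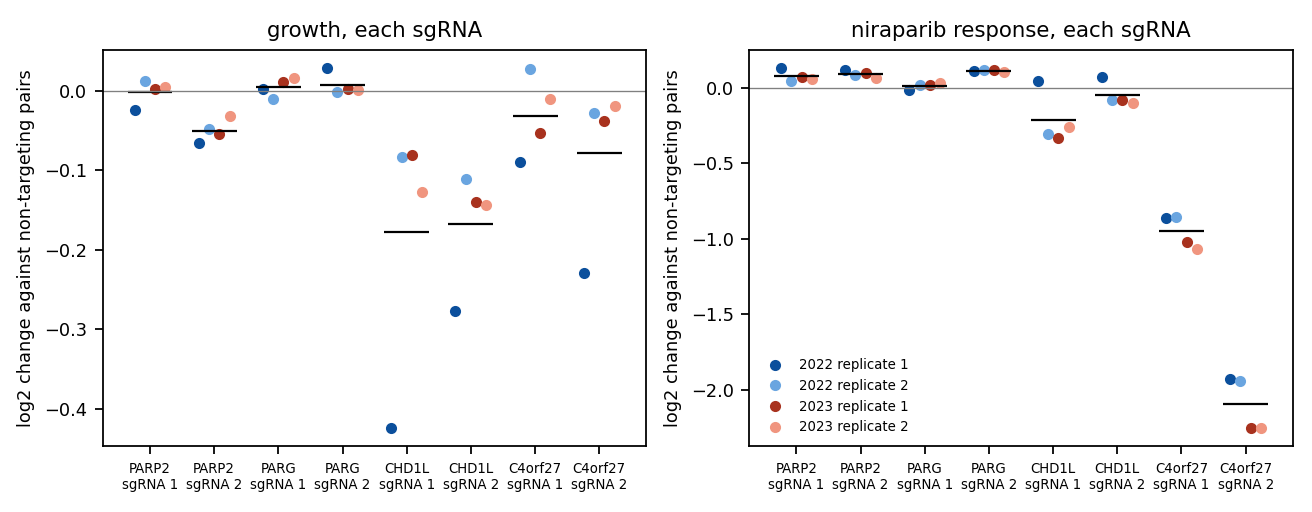
Growth and niraparib response of each sgRNA with non-targeting partners, on the log2 scale; points are the 4 cultures and bars the fitted change. The second C4orf27 sgRNA (-2.10) lies below the first (-0.95) in every culture, and 1 of 2 sgRNAs passed for PARG and for CHD1L in response.

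Pairs of knockdowns asked where losing 1 of these genes changed what losing another gene did. The interaction score of a gene pair is the log2 departure of its 8 constructs from the value that a curve through all partners of its sgRNAs gives at the partner's own level, below 0 for more depletion and above 0 for less. In the reference arm 4 of 542 partners fell with PARP2, 5 with CHD1L, 2 with C4orf27 and 0 with PARG (limma), and none rose with any of them. Over all gene pairs 1.28% fell and 1.06% rose, and the median gene had 4 partners that fell and 3 that rose. For PARG, 24 partners had an unadjusted p under 0.05 in the reference arm. In the lists, which were drawn up with earlier results of these data known, all 3 subunits of RNase H2 fell with PARP2 and all 3 fell with CHD1L. PARP2 had 1 further partner that fell, PARP1, and CHD1L had LIG1 and BRCA2. None of the partners of PARP2 in the other 7 lists passed. With any 1 culture left out, 1 to 2 partners passed with CHD1L and 0 with C4orf27.

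PARP1 is the main enzyme of poly(ADP-ribose) synthesis, and PARP2 shares its catalytic fold. Constructs against both stood at -2.01, -1.23, -1.26 and -1.26 in growth, against a sum of -0.79 for both single changes. Their summed reads went from 3623 to 2210, from 3548 to 3351, from 2362 to 1565 and from 2478 to 1505 between T0 and the reference library. Those of the non-targeting pairs rose in every culture, in 2022 replicate 2 from 913909 to 2047693. The score was -0.63, -0.64, -0.66 and -0.68, a mean of -0.65 ± 0.021 (SD, n = 4; limma adjusted p = 0.0053). The culture that stood apart in growth did not stand apart in this score. Both PARP2 sgRNAs gave it, at -0.65 and -0.66, but they lie 6 bases apart by their names, so their agreement is not that of separate sites.

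With RNase H2, PARP2 followed the same order of subunits in each culture. RNASEH2A is the catalytic subunit, and RNASEH2B and RNASEH2C are its accessory subunits. The PARP2 score with RNASEH2C was -0.76 ± 0.076 (SD, n = 4; limma adjusted p = 0.0053), with values of -0.72, -0.73, -0.88 and -0.73. With RNASEH2B it was -0.54 ± 0.053 (limma adjusted p = 0.0066) and with RNASEH2A -0.34 ± 0.061 (limma adjusted p = 0.022). In growth these pairs stood at -1.68, -0.86 and -0.57, where the sums of the single changes were -0.91, -0.31 and -0.24. The single changes of the subunits followed the same order, at -0.88, -0.28 and -0.21, and their part in the order of the scores was not tested. The RNASEH2A call was lost without any 1 of the 4 cultures, at scores of -0.36 to -0.32, whereas PARP1, RNASEH2B and RNASEH2C passed without each.

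CHD1L passed with the same 3 subunits. Its score was -0.67 ± 0.046 with RNASEH2C (SD, n = 4; limma adjusted p = 0.0054), -0.48 ± 0.070 with RNASEH2B (limma adjusted p = 0.010) and -0.34 ± 0.089 with RNASEH2A (limma adjusted p = 0.028). In RNASEH2C pairs the values were -0.71, -0.62, -0.64 and -0.70, and 2022 replicate 1 was not apart. The first CHD1L sgRNA gave scores of -0.99, -0.73 and -0.57 with RNASEH2C, RNASEH2B and RNASEH2A, and the second -0.34, -0.23 and -0.11, so all 6 were below 0 and the first was further from 0 each time. The RNASEH2A call was lost without any 1 culture, and the RNASEH2B call without 2022 replicate 1 (-0.50), 2022 replicate 2 (-0.45) or 2023 replicate 2 (-0.49). LIG1, the ligase that seals nicks in replication and excision repair, scored -0.27 ± 0.066 with CHD1L (limma adjusted p = 0.038). BRCA2, a core mediator of homologous recombination, scored -0.23 ± 0.019 (limma adjusted p = 0.040). BRCA2 was the 1 of 29 listed genes of homologous recombination that passed. Both calls were lost without any 1 culture, and the single growth value of BRCA2 had the lowest deviation of all genes in 2022 replicate 1, -1.03.

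C4orf27 passed with 1 of the 3 subunits and PARG with 0. C4orf27 scored -0.41 ± 0.098 with RNASEH2C (SD, n = 4; limma adjusted p = 0.021), but -0.14 ± 0.071 with RNASEH2B (limma adjusted p = 0.16) and -0.076 ± 0.10 with RNASEH2A (limma adjusted p = 0.51). With RNASEH2C the first C4orf27 sgRNA scored -0.15 and the second -0.66. The other partner of C4orf27 that passed was CSTF1, a subunit of the cleavage stimulation factor of mRNA ends, at -0.30 ± 0.067 (limma adjusted p = 0.032). Both calls, RNASEH2C and CSTF1, were lost without any 1 culture. PARG scored 0.0083 with RNASEH2A, 0.087 with RNASEH2B and -0.011 with RNASEH2C, with limma adjusted p of 0.34 to 0.96. Its smallest p went to PREB (-0.23, limma adjusted p = 0.057) below 0 and to NUP54 (0.19, limma adjusted p = 0.082) above 0, and neither passed. The RNase H2 subunits had other partners too: RNASEH2A fell with 6 genes in all, RNASEH2B with 8 and RNASEH2C with 21. PARP1, for comparison, had 19 partners that fell in the reference arm. Among them were RNASEH2C, but not RNASEH2A or RNASEH2B, and also LIG1 and BRCA2, which passed with CHD1L.

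**Figure D3:**
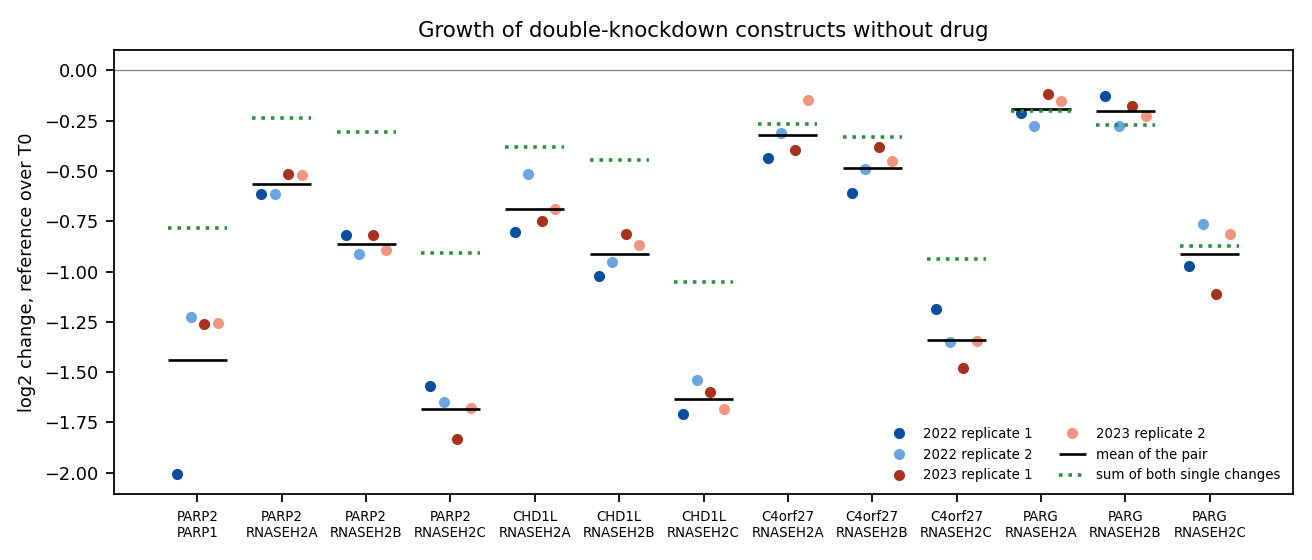
Growth without drug of double-knockdown constructs, as log2 change from T0 to the reference endpoint. Points are the 4 cultures, solid bars the mean of the pair and dotted bars the sum of both single changes; the PARP2 and CHD1L pairs with RNase H2 lie below their sums (PARP2 with RNASEH2C at -1.68 against -0.91), and PARG with RNASEH2C lies at -0.91 against -0.87.

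The 4 genes were also paired with each other. The 6 pairs among PARP2, PARG, CHD1L and C4orf27 scored between -0.051 and 0.031, and none passed (limma adjusted p of 0.61 to 0.997). PARP1 scored -0.066 with CHD1L, -0.076 with C4orf27 and -0.037 with PARG, none past the threshold. Of the 4 genes, PARP2 passed with PARP1, and the difference between these scores was not tested.

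Scores were then taken in the niraparib arm. With PARP2, 6 partners fell and 1 rose, with CHD1L 2 fell and 1 rose, with PARG 0 passed, and with C4orf27 110 fell and 6 rose, where 2.63% of all pairs fell and 2.49% rose. PARP2 scored -0.61 ± 0.043 with PARP1 (SD, n = 4; limma adjusted p = 0.0030), and -0.74, -0.56 and -0.36 with RNASEH2C, RNASEH2B and RNASEH2A. The total change of the double knockdown of PARP2 and PARP1 was 0.83 ± 0.19 (SD, n = 4), where the sum of both single changes was 1.44. In 2022 replicate 2 its reads went from 3351 in the reference library to 9970 in the niraparib library. The other partners of PARP2 that fell were PRIM2, the large subunit of primase (-0.51 ± 0.25), and OSGEP of the tRNA-modifying KEOPS complex (-0.22 ± 0.061), both named after their values were seen. CHD1L scored -0.38 ± 0.092 with RNASEH2C (limma adjusted p = 0.015), -0.26 ± 0.051 with RNASEH2B (limma adjusted p = 0.030) and -0.13 ± 0.011 with RNASEH2A (limma adjusted p = 0.14). With LIG1 it scored -0.14 ± 0.094 (limma adjusted p = 0.20), and with BRCA2 0.23 ± 0.30 (limma adjusted p = 0.27), above 0 in 4 of 4 cultures where the reference arm score was below 0. With BRCA2 the first CHD1L sgRNA scored 0.022 and the second 0.45. The total change of the CHD1L and BRCA2 pair was -4.13, below the sum of both single changes, -3.81. POLG2, of the mitochondrial DNA polymerase, rose with CHD1L at 0.23 ± 0.057 and was also named after its value was seen. With any 1 culture left out, 3 to 4 partners passed with PARP2, PARP1, RNASEH2B and RNASEH2C each time, and 0 passed with CHD1L.

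**Figure D4:**
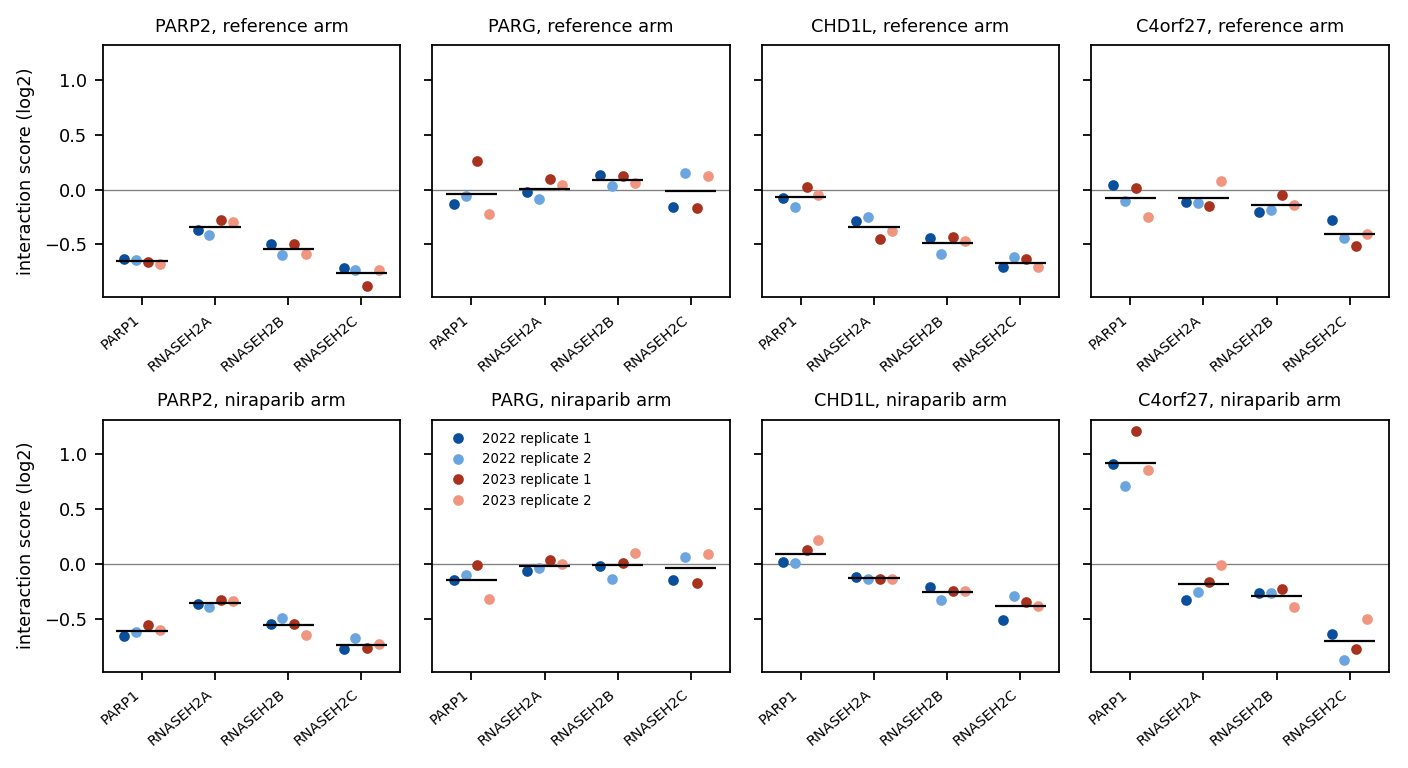
Interaction scores (log2) of the 4 genes with PARP1 and the 3 RNase H2 subunits in the reference arm (top) and the niraparib arm (bottom); points are the 4 cultures and bars their mean. PARP2 lies between -0.28 and -0.88 with all 4 partners in both arms or, with PARP1, between -0.55 and -0.68, and C4orf27 with PARP1 moves from -0.076 to 0.92.

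The differential score, niraparib minus reference within a culture, tests whether a score changed with the drug. With PARP2, CHD1L and PARG 0 of 542 partners passed in limma, with 20, 20 and 22 at an unadjusted p under 0.05, while with C4orf27 32 fell and 1 rose, where 0.252% of all pairs fell and 0.216% rose. The differential score uses the libraries of both arms again, so its counts and those of the arms share them. For PARP2 the differential scores were 0.044 with PARP1 and -0.015, -0.013 and 0.026 with RNASEH2A, RNASEH2B and RNASEH2C, each within 1 SD of 0. Its smallest p went to HAUS1 below 0 (-0.40 ± 0.30, limma adjusted p = 0.24) and NOL6 above 0 (0.68 ± 0.32, limma adjusted p = 0.091). CHD1L scores were closer to 0 under niraparib for all 3 subunits in 4 of 4 cultures, by 0.29 ± 0.058 with RNASEH2C, 0.23 ± 0.030 with RNASEH2B and 0.21 ± 0.083 with RNASEH2A, but limma adjusted p was 0.093, 0.14 and 0.21. The smallest p below 0 with CHD1L was that of SLX4 (-0.26, limma adjusted p = 0.20). For PARG the smallest were PLK1 (-1.22 ± 0.69, limma adjusted p = 0.12) and SMARCE1 (0.20, limma adjusted p = 0.24).

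**Figure D5:**
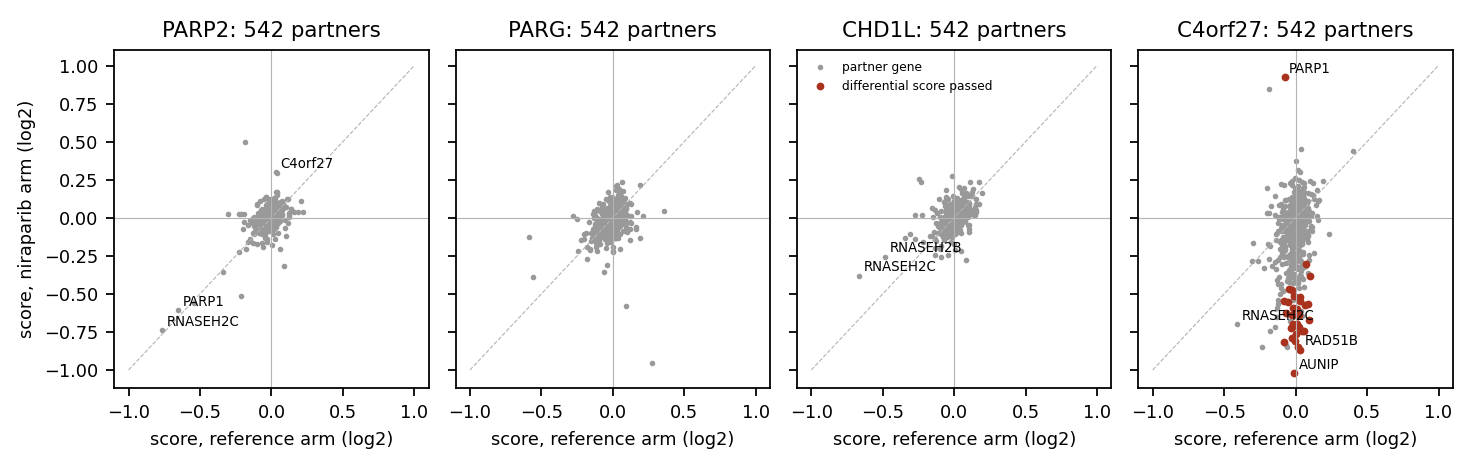
Interaction scores (log2) of the 542 partners of each gene, reference arm against niraparib arm, with the dashed line where both are equal. Red points passed the differential test: 0 for PARP2, PARG and CHD1L and 33 for C4orf27, whose scores spread along the niraparib axis from -1.02 to 0.92.

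Under niraparib C4orf27 had 110 partners that fell, where the median gene had 6. Other genes had as many within a few, with 109 for DNPH1, 107 for RIF1, 105 for UBE2T and 101 for DNMT1, all chosen after their values were seen. The lowest differential scores were with AUNIP, which aids end resection (-1.01 ± 0.23, limma adjusted p = 0.020), RAD51B, which also acts in homologous recombination (-0.90 ± 0.12, limma adjusted p = 0.0087), and RIF1, an effector of 53BP1 (-0.86 ± 0.25, limma adjusted p = 0.033). In the reference arm these 3 lay at -0.0085, 0.033 and 0.015. Reads of the C4orf27 and RAD51B pair went from 1806 at T0 to 3409 in the reference library and 435 in the niraparib library of 2022 replicate 2.

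By list, 20 of 29 homologous recombination genes fell with C4orf27 in the niraparib arm, with a median score of -0.43, where 20.3% of all 542 partners fell and their median was -0.060. In Fanconi anemia 13 of 16 fell (median -0.52), and in fork and checkpoint genes 11 of 20 (median -0.33). LIG3, POLB and XRCC1 of excision and single-strand break repair fell as well. In nucleotide and NAD supply 3 of 5 fell, DNPH1, NAMPT and NMNAT1. In RNase H2 2 of 3 fell, RNASEH2B and RNASEH2C, both calls lost with the plain sum of single changes as expectation (-0.076 and -0.084), while 1 of 5 chromatin remodelling genes fell, near the share of all partners. In end joining and 53BP1-shieldin 2 of 15 fell, RIF1 and DYNLL1, a share not above that of all partners, and TP53BP1 rose at 0.45 ± 0.17 (limma adjusted p = 0.022). In the differential score 8 of 29 homologous recombination genes fell, 4 of 16 in Fanconi anemia and 5 of 20 in fork and checkpoint, where 5.90% of all partners fell. No member of these 9 lists fell with PARG in either arm.

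The C4orf27 counts changed with the expectation. With the plain sum of single changes in place of a curve, 28 partners fell and 292 rose in the niraparib arm, and in the differential score 14 fell and 219 rose. AUNIP (-0.59), RAD51B (-0.36) and RIF1 (-0.38) kept their sign in the differential score, and RIF1 did not pass. With 1 culture left out, 0 to 1 partner passed in the differential score and 41 to 58 in the niraparib arm.

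PARP1 was the only partner whose differential score with C4orf27 rose, by 0.998 ± 0.18 (SD, n = 4; limma adjusted p = 0.013). In the reference arm this pair was at -0.076, and in the niraparib arm it was at 0.91, 0.71, 1.21 and 0.86. In total change its constructs stood at 0.36, 0.23, 0.50 and 0.23, where C4orf27 alone was at -1.50 and PARP1 alone at 1.38. So the double knockdown was above the non-targeting level in 4 of 4 cultures, and above the sum of the single changes, -0.12. With that sum as the expectation the differential score was 0.60 and passed. The differential call was lost without any 1 culture, with scores of 0.93 to 1.06 and limma adjusted p of 0.061 to 0.082, and the niraparib arm score passed each time. Such a rise with PARP1 was not particular to C4orf27. In the differential score PARP1 rose with 118 of its 542 partners and fell with 0, and in the niraparib arm it rose with 183 and fell with 7. Its median differential score was 1.15 with the Fanconi anemia list, 1.42 with excision and single-strand break repair, and 0.20 with all partners.

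The score of PARP2 with C4orf27 was 0.031 ± 0.064 in the reference arm and 0.23, 0.41, 0.23 and 0.32 in the niraparib arm, a mean of 0.30 ± 0.086 (SD, n = 4; limma adjusted p = 0.027). It was above 0 for both PARP2 sgRNAs, which lie 6 bases apart, at 0.26 and 0.34. The niraparib arm call was lost without any 1 culture (0.26 to 0.32), and the differential score, 0.27 ± 0.074, did not pass (limma adjusted p = 0.12). PARG scored 0.21 ± 0.23 with C4orf27 in the niraparib arm (limma adjusted p = 0.23) and CHD1L -0.11 ± 0.094 (limma adjusted p = 0.29).

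Interaction profiles, the scores of a gene over 541 shared partners, were compared by Pearson r, as a description over partners that share libraries. In the reference arm RNASEH2A (0.31), CHD1L (0.30) and RNASEH2B (0.25) were most like PARP2, and PARP2 (0.30), PARP1 (0.28) and RNASEH2C (0.27) most like CHD1L. RNASEH2B (0.30), EWSR1 (0.28) and XRCC4 (0.26) were most like C4orf27, and E2F2 (0.23), CBX6 (0.21) and MAPKAP1 (0.21) most like PARG. In the niraparib arm C4orf27 was most like the single-strand break repair genes LIG3 (0.79) and POLB (0.79) and DNPH1 (0.78), which clears a damaged nucleotide. CHD1L was most like FANCL (0.42), SMC6 (0.42) and RNASEH2C (0.39), PARP2 like PPP2R2A (0.20), HNRNPDL (0.19) and CCAR1 (0.18), and PARG like TP53BP1 (0.26), PNRC2 (0.25) and DAD1 (0.24).

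How far such profiles can be read was given by the r between the 2 sgRNAs of a gene, with a median over genes of 0.28 in the reference arm and 0.33 in the niraparib arm. PARP2 had 0.40 and 0.36, and C4orf27 had -0.070 in the reference arm and 0.67 in the niraparib arm. CHD1L had 0.14 and 0.18, and PARG -0.022 and 0.075. Of the RNase H2 subunits, RNASEH2C had 0.62 and 0.64, RNASEH2B 0.30 and 0.42, and RNASEH2A -0.027 and 0.16. PARG constructs were also the least deep, with a median of 163.5 reads at T0 against 204.25 for C4orf27, 290.5 for CHD1L and 308.5 for PARP2. The part of depth in the PARG result was not tested.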

How the data were processed

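Read counts of dual-sgRNA constructs were analysed in 12 libraries of K562 cells, 2 libraries in each of 6 groups. The count tables the authors deposited give unnormalized read counts for every construct. Bowtie2 2.3.4.1 is named in the submitters' processing notes, with no role given. The deposited phenotype tables hold log2 values that the authors computed, and these served only as an alternative. The genome build behind the positions in the sgRNA names was not given in the sources used here. PCR reads carried no molecular identifiers.

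Reads of each gene were summed over its 220 constructs with a non-targeting sgRNA and scaled to the reads of the 3025 constructs with 2 non-targeting sgRNAs. All 12 libraries entered 1 quasi-likelihood fit in edgeR 4.0.16 (R 4.3.3), with a block for each culture. Growth is reference minus T0, niraparib response is niraparib minus reference, and total change is niraparib minus T0. Benjamini-Hochberg adjustment of p-values ran over 543 genes and 55 non-targeting sgRNAs, and called under 0.05. Of these 55 sgRNAs, 3 passed in growth, 2 in response and 2 in total change. Biological variation came to a coefficient of 3.06%, on 4 residual degrees of freedom. The SE of the fit comes from within the screens, whereas the SD printed beside a value is over the 4 cultures. Each sgRNA was fitted in the same way.

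Interaction scores left out constructs whose mean T0 count was under 30. After adding 1 to every count, log2 ratios of endpoint to T0 were centred on the median non-targeting pair. A curve of degree 2 was fitted through the partners of each sgRNA on the partners' own phenotypes. The residuals were averaged over both orders and the 4 sgRNA pairs of a gene pair. The differential score subtracts, within a culture, the reference score from that under niraparib. The 4 cultures were tested with limma 3.58.1, adjusted over all 147044 gene pairs. Both scripts were tested on simulated data.

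The replicate number pairs the 3 libraries of a culture, since per the labels both arms were split from the T0 culture. The check of this pairing, the correlation of replicate differences between arms over 1281365 constructs, gave Pearson r of 0.0316 to 0.0803, so the pairing rests on the labels. The 4 genes and all gene lists were chosen with earlier results of these data known. The genes named are these 4 and PARP1, every pair among the 5, and list members that passed with 1 of the 4. For each of the 4 genes they are also the 3 lowest and 3 highest partners that passed with 1 sign in all cultures, in the reference arm and in the differential score, or, where none passed, the 1 with the smallest p. They also include the 3 genes with the most similar interaction profile in each arm. Partners named outside this rule are marked as chosen after their values were seen. Alternatives covered scaling (TMM, DESeq2 1.42.0), the block, single sgRNAs, positions and orders, count minimums, pseudocount, expectation, single screens, equal doublings, the deposited log2 values and leaving out each culture.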

Additional observations from a re-analysis of the deposited data

Results flagged for a closer look

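Of 31 sets of 4 cultures examined, 4 held a culture far from the other 3, and chance alone gives such a gap in about 1 set in 20. In growth the CHD1L value of 2022 replicate 1, -0.33, was the lowest, with the other cultures between -0.14 and -0.10. In niraparib response the CHD1L value of the same culture, 0.063, was the highest, with the others between -0.17 and -0.15. Growth and response share the reference library of that culture, and the total change of CHD1L, which does not use it, was -0.26 there and -0.26 to -0.29 in the others.

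The PARG response of 2022 replicate 1, 0.062, was the lowest of its 4 values, with the others between 0.076 and 0.078. The score of PARP2 with RNASEH2C in the reference arm was lowest in 2023 replicate 1, at -0.88, with the others between -0.73 and -0.72.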

How the results depend on the processing

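Over 47 results on the 4 genes, 657 recomputed values were compared with those reported: 494 kept their direction and call or a similar count, 75 lost the call, 9 gained one, 8 changed sign and 71 counts moved by over 1.5 times. The cause of these changes was not tested. Scaling reversed the sign of growth for PARP2, CHD1L and C4orf27, and PARG, already above 0, passed: TMM gave PARP2 0.43, PARG 0.46, CHD1L 0.28 and C4orf27 0.40, and DESeq2 with median-of-ratios size factors 0.36, 0.40, 0.22 and 0.33, while the median of all genes moved by 0.45 and 0.39. Total change of CHD1L became 0.17 and 0.16, and the C4orf27 screen difference passed in DESeq2 at -0.19 and, with non-targeting size factors, -0.26. The PARP2 growth call was lost with the first sgRNA (-0.00070), the first position (-0.016), the 2022 screen (-0.034), the 2023 screen (-0.022) and the deposited log2 values, which the authors divided by doublings (-0.0027). PARG lost its calls with the first sgRNA (response 0.015, total change 0.020). CHD1L lost its response with the second sgRNA (-0.047), the second position (-0.074), the 2022 screen (-0.048) and the deposited values (-0.047).

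With no replicate block, the pairing of libraries by culture set aside, the PARP2 growth change of -0.028 did not pass (edgeR adjusted p = 0.060), and the C4orf27 differential count was 48. No other call of the 4 genes named above changed with the block.

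Several calls were lost with 1 order of sgRNAs alone. PARP2 with RNASEH2A lost its call in the reference arm (-0.29 and -0.39) and with the first order under niraparib (-0.34). CHD1L lost RNASEH2A in the reference arm (-0.34 in both orders, -0.31 by the median over sgRNA pairs), and under niraparib RNASEH2B (-0.26, -0.25, median -0.22) and, with the second order, RNASEH2C (-0.34). C4orf27 lost RNASEH2C in the reference arm (-0.38, -0.44), RNASEH2B under niraparib (-0.34, -0.23), PARP1 in the differential score (1.01, 0.98) and PARP2 under niraparib (0.32, 0.27). With additive expectation, C4orf27 under niraparib stood at -0.076 with RNASEH2B, -0.084 with RNASEH2C and 0.82 with CSTF1, whose sign changed. The response of PARP1 between screens ran from -0.53 to 0.29 with 1 culture left out and changed sign without 2022 replicate 1.

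Counts of partners past the threshold moved most with the additive expectation. In the reference arm, niraparib arm and differential score it gave PARP2 10, 16 and 2, PARG 12, 27 and 4, CHD1L 95, 226 and 19, and C4orf27 11, 320 and 233. A pseudocount of 10 gave PARP2 8 in the reference arm, PARG 1, 3 and 1 in the same order, CHD1L 8 under niraparib and 1 in the differential score, and C4orf27 80 in the differential score. For PARG a T0 minimum of 100 gave 1 and 2 in the 2 arms, a minimum of 10 gave 1 under niraparib, and a straight line gave 1 and 6. The first order gave PARG 1 under niraparib, CHD1L 3 and C4orf27 0 in the reference arm, and C4orf27 49 under niraparib and 7 in the differential score. The second order gave PARP2 4 under niraparib, PARG 2 in the reference arm, CHD1L 2 and 1 in the 2 arms, and C4orf27 1, 39 and 2. The median over sgRNA pairs gave PARG 1 under niraparib, CHD1L 2 and 1, C4orf27 1 in the reference arm and 21 in the differential score. A screen term gave PARG 1 under niraparib, CHD1L 3 and C4orf27 1 in the reference arm, and C4orf27 15 in the differential score, and equal doublings gave C4orf27 50.

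Leaving out 1 culture at a time left 3 cultures to test. Growth ran from -0.035 to -0.021 for PARP2, -0.23 to -0.11 for CHD1L and -0.096 to -0.016 for C4orf27, and the CHD1L response from -0.16 to -0.048. The screen difference ran from -0.27 to -0.25 for C4orf27, -0.22 to -0.0026 for CHD1L and -0.047 to 0.010 for PARP2. Reference arm scores ran from -0.36 to -0.32 for PARP2 with RNASEH2A, -0.37 to -0.30 and -0.50 to -0.45 for CHD1L with RNASEH2A and RNASEH2B, and -0.45 to -0.37 for C4orf27 with RNASEH2C. Niraparib arm scores ran from -0.37 to -0.34 for PARP2 with RNASEH2A, -0.27 to -0.23 and -0.41 to -0.34 for CHD1L with RNASEH2B and RNASEH2C, -0.31 to -0.25 for C4orf27 with RNASEH2B and 0.26 to 0.32 for PARP2 with C4orf27. The C4orf27 differential score with PARP1 ran from 0.93 to 1.06. Counts in the niraparib arm ran from 41 to 58 for C4orf27, 3 to 4 for PARP2, 0 to 1 for PARG and 0 to 0 for CHD1L. In the reference arm they ran from 1 to 2 for CHD1L and 0 to 0 for C4orf27, and in the differential score from 0 to 1 for C4orf27.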
